A study of Mus musculus with 3 samples.

Results

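Embryoid bodies (EBs) are aggregates in which mouse embryonic stem (ES) cells leave self-renewal and begin to form the cell types of the early embryo. The genes described here are those that could be compared between ES cells at day 0 and control EBs at day 4. They are the rows with a gene symbol and at least 5 FPKM (fragments per kilobase of transcript, scaled to library size) in either library. They numbered 10421 of 36808 rows in the table, of which 18198 were at 0 in both libraries. Of the 10421, 8196 reached 5 FPKM in both libraries, 1278 in ES cells alone and 947 in control EBs alone. A gene that reached the floor in a single library had to differ, so counts over the genes that passed are descriptions.

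All libraries came from the D3 ES cell line, with (C3H/HeH x 101/H)F1 as the mouse background in the labels. The ES cells and the control EBs were labelled wildtype, and the EBs of the third library, also day 4, carried a Brachyury knockdown. Its values come from the second table, where the same control library was quantified again, so both comparisons share it. The knockdown values are set beside the others. They are compared only with that control library, and only as medians by transcript length. The labels do not say how the knockdown was made, and the control column that stands beside the knockdown is named nontarget. Each group was 1 library of whole cultures of 1 line, so nothing here was tested or checked in a replicate. A gene counts as higher or lower by size alone, when log2(FPKM + 1) in control EBs minus that in ES cells is at least 1 either way, and "difference" below means this quantity. By that rule 1658 genes were higher in control EBs, which is 15.9% of the 10421, and 2151 were lower, which is 20.6%. The median difference was −0.13 and the range ran from −6.64 to 7.62.

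In mouse ES cells, leukaemia inhibitory factor acting through STAT3 and the naive transcription factors maintain self-renewal, while FGF signalling drives exit from it. Cells that leave this state pass through one resembling the epiblast, an epithelium on a basement membrane, before some form primitive streak. Metabolism, translation and chromatin are also known to be remodelled over this period.

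The labels were checked first against their defining genes. T (ENSMUSG00000062327, mm9 chromosome 17, 8627288 to 8635361), the streak T-box gene, was at 0.297 FPKM in ES cells, 254 in control EBs and 2.47 in knockdown EBs. Fgf5, an epiblast growth factor gene, was at 0.177, 113 and 77.7 FPKM, and Fgf8 was listed at 0 in ES cells, with 182 and 48.1 FPKM in the EB libraries. The naive pluripotency genes went the other way, with Zfp42 at 467, 5.51 and 28.5 FPKM and Esrrb at 169, 1.30 and 6.69 FPKM. These genes stood where the day 0 and day 4 labels put them. Of the markers of other cell types, all 12 fibroblast markers were below 5 FPKM in both libraries, the highest at 3.30 FPKM, and their sum was 7.03 FPKM in ES cells against 6.17 in control EBs. All 39 Hox genes were likewise below the floor, with a highest value of 1.23 FPKM, and their sum in control EBs was 0. Extraembryonic endoderm markers summed to 558 FPKM in ES cells against 165 in control EBs, and 9 of 17 passed the floor, with Gata4 at 47.6 and 5.46 FPKM and Dab2 at 29.6 and 5.94. Trophoblast markers summed to 15.3 and 57.7 FPKM, blood and endothelial markers to 21.9 and 8.72, and neural markers to 39.9 and 21.8. In whole cultures, fewer cells of a type and less RNA per cell cannot be told apart.

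A feature of all 8897 protein-coding genes bears on every family below. Short transcripts were higher in control EBs and long transcripts were lower. These genes were divided into 10 bins of transcript length of nearly equal number. In the bin with the shortest transcripts, of 201 to 1359 bases, the median difference was 0.56, with 32.4% of genes higher and 8.76% lower. In the bin with the longest, from 6667 bases, it was −0.54, with 7.64% higher and 30.7% lower. Between knockdown and control EBs, which share a table and a stage, the bins' medians lay between −0.04 and 0.08. For this reason a second value is given for families, the median after centring the difference within each bin of transcript length. With this centring 15.1% of protein-coding genes were higher and 15.8% lower. The part of transcript length in single results was not tested. FPKM also summed to 568352 in ES cells against 781453 in control EBs, and dividing by these sums lowers the median difference of all genes from −0.13 to −0.57. With that division 1042 genes were higher and 3544 lower, so that 22.7% of the called genes were higher in place of 43.5%. List counts given below with that division are to be set beside these totals.

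**Figure D1:**
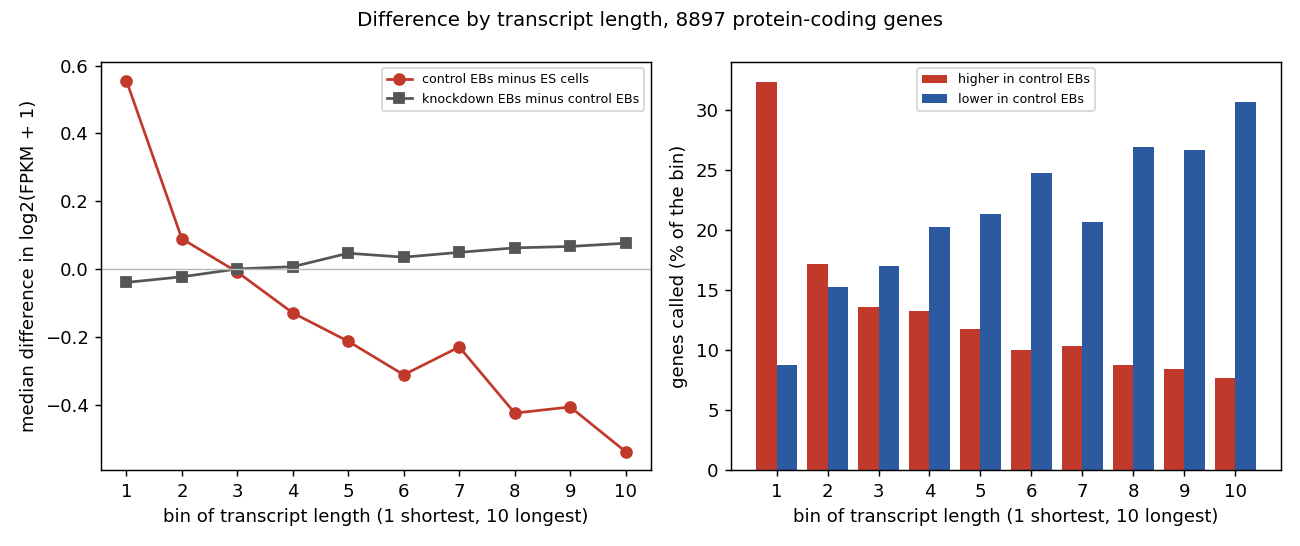
Median difference in log2(FPKM + 1) (left) and the percentage of genes called higher or lower in control EBs (right) by bin of transcript length, for 8897 protein-coding genes. The control EB against ES cell median runs from 0.56 in the shortest bin to −0.54 in the longest, while that of knockdown against control EBs stays between −0.04 and 0.08.

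ES cells and control EBs had different adhesion genes at high levels. Of 5 claudins, the strand proteins of tight junctions, that passed the floor, 3 were higher and 0 lower (median 2.55, centred 1.995). Cldn6 was at 12.1 FPKM in ES cells against 164 in control EBs, Cldn7 at 6.23 and 41.4, and Cldn3 at 1.33 and 15.1. The list of tight junction and polarity genes split evenly, with 6 of 21 higher and 6 lower. Crb3, a Crumbs family apical polarity protein, was at 3.27 and 63.0 FPKM, and the tight junction protein gene Ocln at 3.32 and 9.43. Jam2, a junctional adhesion molecule, was at 70.0 and 0.997 FPKM, and Prkci, an atypical protein kinase C of the PAR complex, at 136 and 15.6. Genes of apical and junctional proteins were thus on both sides of the comparison.

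Among cadherins, the calcium-dependent adhesion molecules, 4 of 24 passed and 3 were higher. These 3 passed in control EBs alone, and so had to be high there. Cdh2, N-cadherin, was at 0.592 and 14.9 FPKM. Cdh1, E-cadherin, named here after its values were seen, was at 71.6 and 69.7 FPKM, a difference of −0.04. The genes of the epithelial-mesenchymal transition list had no common direction, with 3 of 11 higher, Cdh2 among them, and 3 lower, including the transcription factor Zeb1 at 6.83 and 1.62 FPKM. Keratins of simple epithelia were much higher, Krt18 at 23.0 and 317 FPKM and Krt8 at 24.8 and 241, while Krt42 was at 14.6 and 0.192 and Krt17 at 5.90 and 0.548.

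Among genes for basement membrane chains and for their receptors more were lower than higher in control EBs. Of 5 laminins 4 were lower (median −2.13, centred −1.72), and no laminin was higher. Here 2 of the 5, Lama1 among them, passed in ES cells alone, and so had to be high there. The same held for 2 of 5 collagens, 2 of 7 integrins and 3 of the 16 further genes below. Of those 16, 1 passed in control EBs alone. Lama1 (ENSMUSG00000032796, mm9 chromosome 17, 68046605 to 68171985), the alpha chain of the earliest embryonic laminin, was at 92.9 FPKM in ES cells, 4.88 in control EBs and 0.690 in knockdown EBs. Its partner chains Lamc1 and Lamb1 were at 137 and 12.6 FPKM and at 109 and 24.1 FPKM. The type IV collagen genes Col4a1 and Col4a2 were at 74.7 and 14.3 and at 36.7 and 7.63 FPKM, and 4 of 5 collagens were lower. Among 16 further basement membrane genes 10 were lower and 2 higher (median −1.22), or 8 and 2 after centring (median −0.99), such as the nidogen that links laminin to collagen, Nid1, at 30.0 and 0.782 FPKM. Of 7 integrins, the laminin and fibronectin receptors, 4 were lower and 0 higher (median −2.16, centred −1.73), with Itga6 at 80.2 and 10.1 FPKM. These genes are long, and extraembryonic endoderm, whose marker sum moved the same way, is known to secrete them; 6 of its 9 markers that passed were lower, and Lama1 and Col4a1 are in both lists. The part of either in this result was not tested. Glypicans and syndecans, the cell surface heparan sulfate proteoglycans, went against the matrix, with 4 of 7 higher and 0 lower (median 1.09, centred 1.32). Gpc3 was at 12.8 and 76.9 FPKM and Sdc2 at 1.85 and 16.1.

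**Figure D2:**
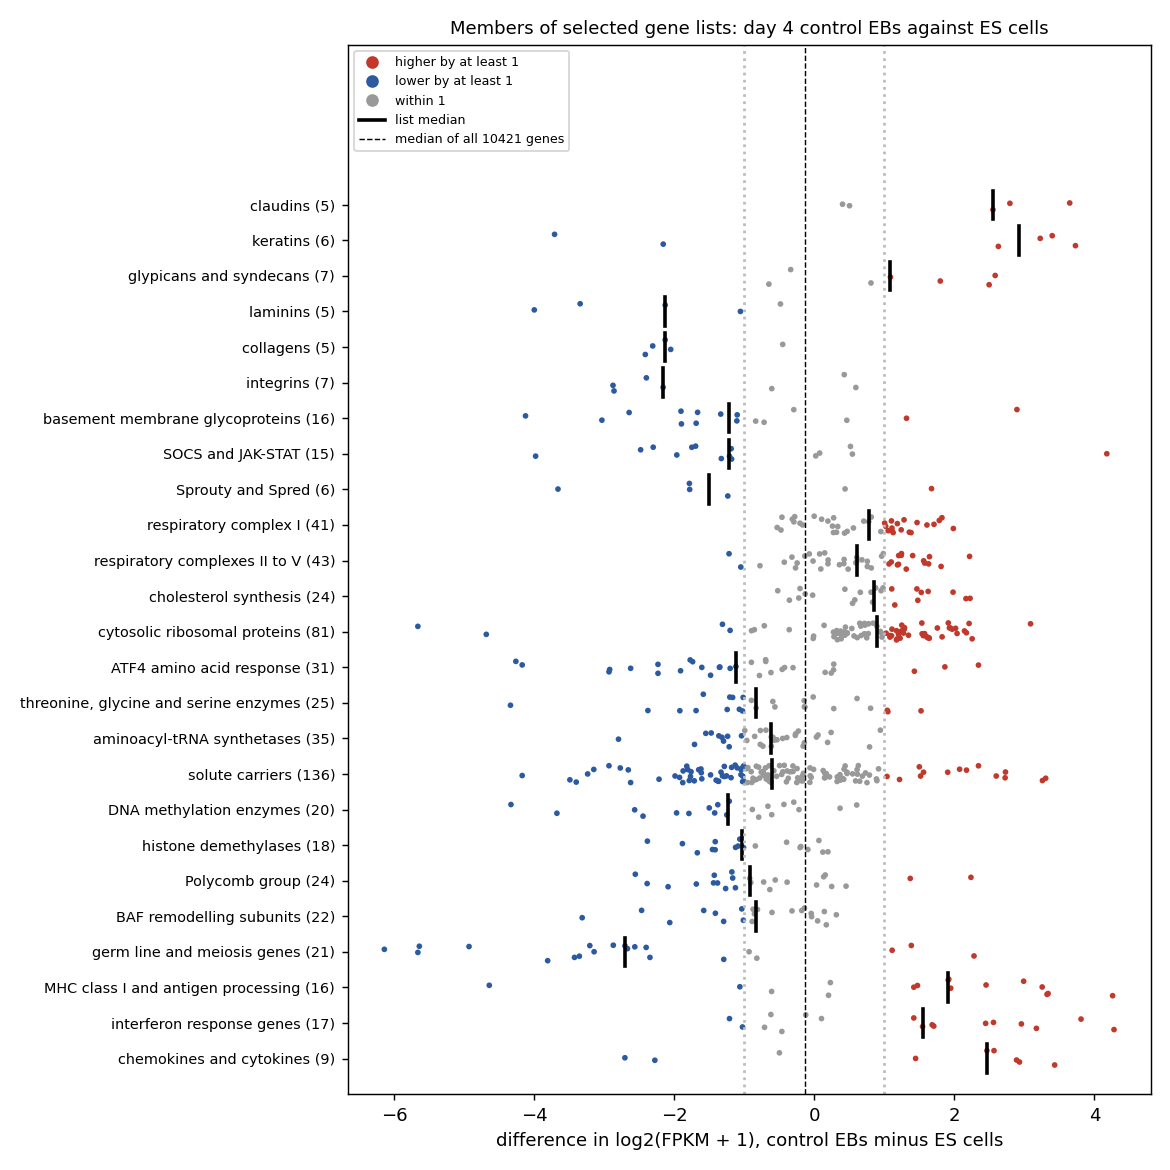
Difference in log2(FPKM + 1), control EBs minus ES cells, for the members of selected gene lists that passed the floor (number in brackets). Each point is 1 gene, black bars are list medians, the dashed line is the median of all 10421 genes (−0.13) and dotted lines mark a difference of 1 either way; laminins, collagens and integrins lie to the left, and claudins and most keratins to the right.

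Families of guidance molecules had members on both sides. Of 12 semaphorins, plexins and neuropilins 4 were higher and 6 lower. Of these 12, 4 passed in control EBs alone and 6 in ES cells alone, so the floor set the direction of most of them. Sema6a was at 0.548 FPKM in ES cells against 17.9 in control EBs and Sema6d at 0.197 and 5.73, whereas Sema4b was at 28.6 and 3.30 and Sema4a at 6.44 and 0.180. The Eph receptor gene Epha1 was at 1.05 and 31.4 FPKM, and at 5.90 in knockdown EBs, and Epha2 was at 46.9 and 18.5. In each of these families some members were lower in control EBs and related members higher.

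In signalling, more cytokine pathway genes were lower than higher, and several ligands of the early embryo were higher. Of 15 SOCS and JAK-STAT genes 10 were lower and 1 higher (median −1.21), and after centring by length 6 were lower and 1 higher (median −0.87). Socs3, a feedback inhibitor induced by STAT3, was at 64.7 FPKM in ES cells, 3.17 in control EBs and 1.12 in knockdown EBs. Il6st, the receptor subunit shared by the leukaemia inhibitory factor family, was at 22.9 and 5.13 FPKM. The PIM kinases, survival kinases induced by cytokines, divided, with Pim1 at 36.9 and 6.70, Pim3 at 91.4 and 15.6, and the X-linked Pim2 at 4.37 and 96.0 FPKM. Among Sprouty and Spred genes, which restrain FGF signalling, 4 of 6 were lower (median −1.51, centred −1.09), Spry4 at 58.1 and 3.68 FPKM. Dual-specificity phosphatases that act on MAP kinases split, with Dusp6 at 38.7 and 86.2 FPKM and Dusp9 at 113 and 10.1. Feedback genes of receptor kinase signalling therefore did not share a direction.

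Among FGF ligand genes, Fgf4 was at 63.6 and 0.847 FPKM, opposite to Fgf5 and Fgf8 above. TGF-beta superfamily ligands were 3 higher and 3 lower of 8. The Nodal antagonist genes Lefty1 and Lefty2 were at 3.39 and 50.3 and at 0.620 and 8.07 FPKM, and Bmp4 and Inhbb at 52.2 and 2.85 and at 31.3 and 0.0469. All 3 Wnt ligands that passed did so in control EBs alone, and so had to be high there. Wnt8a was at 0.279 FPKM in ES cells, 20.8 in control EBs and 0.604 in knockdown EBs, and Wnt3 was listed at 0 and at 6.44 and 1.51. Igfbp3, an insulin-like growth factor binding protein, was at 3.68, 145 and 7.38 FPKM in the same order. Of 5 RGS genes, which switch off G protein signalling, 4 were higher and 0 lower. Here 3 of the 5 passed in control EBs alone, and so had to be high there. Amot, a Hippo pathway scaffold, was at 4.15, 64.6 and 261 FPKM, while the pathway's transcription factor gene Tead4 was at 14.0, 1.91 and 3.18.

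Among genes for amino acid supply and its stress response, more were lower than higher. The list of genes described as targets or partners of ATF4, the transcription factor of the amino acid and unfolded protein response, had 16 of 31 lower and 3 higher (median −1.12). Centring by length left it at −1.04, with 16 lower and 3 higher. Slc7a1, a cationic amino acid carrier, was at 45.5 FPKM in ES cells, 1.58 in control EBs and 1.81 in knockdown EBs. Slc1a5, a glutamine carrier, was at 83.9, 10.1 and 11.3 FPKM, and Chac1, which degrades glutathione, at 22.2, 2.06 and 1.88. Nupr1, a stress-induced nuclear protein, was at 57.4, 2.05 and 1.64 FPKM. The higher members were Slc7a11 at 0.876 and 8.53 FPKM, the cystine carrier, Ddit4 at 16.9 and 64.2, an inhibitor of mTORC1, and Vldlr at 1.84 and 6.65.

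A C/EBP-ATF response element, the site bound by ATF4 with a C/EBP partner, was searched for in the window from 250 bases before to 50 bases after the RefSeq gene start. The letters were TGATGNAAN, on both strands. They were present in 3.95% of all 32851 promoter windows, in 10 of the 27 list members with a window, and in 4 of 24 aminoacyl-tRNA synthetase genes. A list gene counted if any of its windows matched, so the list counts are per gene and the 3.95% is per window. Of the 10 list members with the letters, 4 were lower and 2 higher, beside 16 lower and 3 higher among all 31. The stretches shown were taken from 4 genes that were lower, so they do not tie the letters to a direction. Pycr1, a proline synthesis gene at 21.3 FPKM in ES cells against 7.77 in control EBs, was chosen after its values were seen. Sequences are from RefSeq on GRCm38.p6, written 5′ to 3′ on the gene's strand, with the match in capitals on whichever strand it lay. A match is a description of letters and not a bound site.
Chac1, chr2:119351023-119351081, plus strand: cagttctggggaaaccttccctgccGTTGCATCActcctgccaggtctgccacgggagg
Trib3, chr2:152344014-152344072, minus strand: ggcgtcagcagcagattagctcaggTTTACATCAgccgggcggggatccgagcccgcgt
Nupr1, chr7:126625548-126625606, minus strand: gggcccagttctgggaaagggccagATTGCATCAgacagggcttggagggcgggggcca
Pycr1, chr11:120643818-120643876, minus strand: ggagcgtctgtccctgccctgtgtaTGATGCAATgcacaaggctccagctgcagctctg

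The aminoacyl-tRNA synthetases, which charge transfer RNAs, had 10 of 35 lower and 0 higher (median −0.61). Centred by length 7 were lower and 2 higher (median −0.50), where 15.8% of all protein-coding genes were lower. With FPKM divided by their sum 21 were lower (median −1.07), where 3544 of all 10421 genes were lower. Aars was furthest, at 224 FPKM in ES cells against 31.5 in control EBs, followed by Wars at 88.7 and 26.4 and Cars at 88.7 and 29.6. Of 25 threonine, glycine and serine enzymes 11 were lower and 3 higher (median −0.83, centred −0.62). Tdh, threonine dehydrogenase, on which mouse ES cells are known to depend, was at 104 FPKM in ES cells, 4.22 in control EBs and 36.5 in knockdown EBs. Gcat, the next enzyme of threonine breakdown, was at 22.04, 65.2 and 62.8 FPKM, so the enzymes of one pathway lay on opposite sides. Of the one-carbon enzymes of the mitochondrion, Shmt2 was at 102 and 18.9 FPKM and Mthfd2 at 90.1 and 27.3. Solute carriers as a whole, with 136 of 362 past the floor, counted 44 lower and 14 higher (median −0.60, centred −0.35). This is 32.4% and 10.3% of those that passed. With FPKM divided by their sum 69 were lower, beside the same 3544 of all 10421 genes.

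Cholesterol synthesis genes were higher or within the size rule. Of 24 that passed, all in both libraries, 9 were higher and 0 lower (median 0.85). Centring by length raised this to 14 higher and 0 lower with a median of 1.23. Fdps, which makes farnesyl diphosphate, was at 17.5 FPKM in ES cells, 85.3 in control EBs and 84.9 in knockdown EBs. Cyp51, lanosterol demethylase, was at 10.4, 49.97 and 71.7 FPKM, Sc4mol at 28.5, 115 and 152, and Ebp at 18.05, 57.8 and 40.2. The letters TCACNCCAC, a sterol regulatory element, were in 1.24% of promoter windows on either strand and in 0 of the 16 members with a window, which says only that these letters are not in those windows.

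Glycolysis genes had no common direction. Of 25, 17 were within the size rule, 5 were lower, Hk2, Hk1 and Pfkp among them, and 3 were higher, Ldhb, Ldha and Slc16a1. The median of the 25 genes was 0.10 and turned to −0.36 with FPKM divided by their sum. Hk2, hexokinase 2, was at 118 FPKM in ES cells against 12.1 in control EBs, Hk1 at 10.7 and 1.85, and the phosphofructokinase gene Pfkp at 116 and 7.33. Ldha and Ldhb, the lactate dehydrogenase subunits, were at 433 and 1646 and at 44.5 and 232 FPKM. Slc16a1, a lactate carrier, was at 39.6 and 151 FPKM. The knockdown EBs had 9.96 FPKM of Hk2 and 1299 of Ldha.

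Among genes for the respiratory chain more were higher than lower, though most were within the size rule. In complex I, the entry point for NADH, 18 of 41 were higher and 0 lower (median 0.78), and in complexes II to V 15 of 43 were higher and 2 lower (median 0.61). These proteins are small and their transcripts short. After centring by length 10 and 11 were higher and 1 of each list lower, with medians of 0.40 and 0.38. With FPKM divided by their sum 6 of each list were higher, and 0 and 3 were lower. By that scaling 1042 of all 10421 genes were higher and 3544 lower. Ndufa13 was at 34.6 FPKM in ES cells against 140 in control EBs, Ndufb2 at 56.9 and 188, and the ATP synthase gene Atp5g2 at 24.8 and 119. The exceptions among the called genes were Sdha at 150 and 64.0 FPKM and Uqcrc1 at 164 and 78.5. Of 32 mitochondrially encoded genes that passed 19 were higher and 0 lower. With FPKM divided by their sum 11 were higher and 1 lower, and of the 13 protein-coding ones 3 were higher after centring by length. The 4 that passed in control EBs alone were transfer RNA genes listed at 0 in ES cells. Among citrate cycle genes 4 of 28 were higher and 4 lower. Within succinate dehydrogenase, Sdhb and Sdhd were at 87.8 and 203 and at 86.8 and 207 FPKM, opposite to the catalytic subunit gene Sdha. Fabp5, a fatty acid binding protein, was at 4.22 and 40.8 FPKM and Cpt1a, which admits fatty acids to the mitochondrion, at 15.3 and 0.738.

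**Figure D3:**
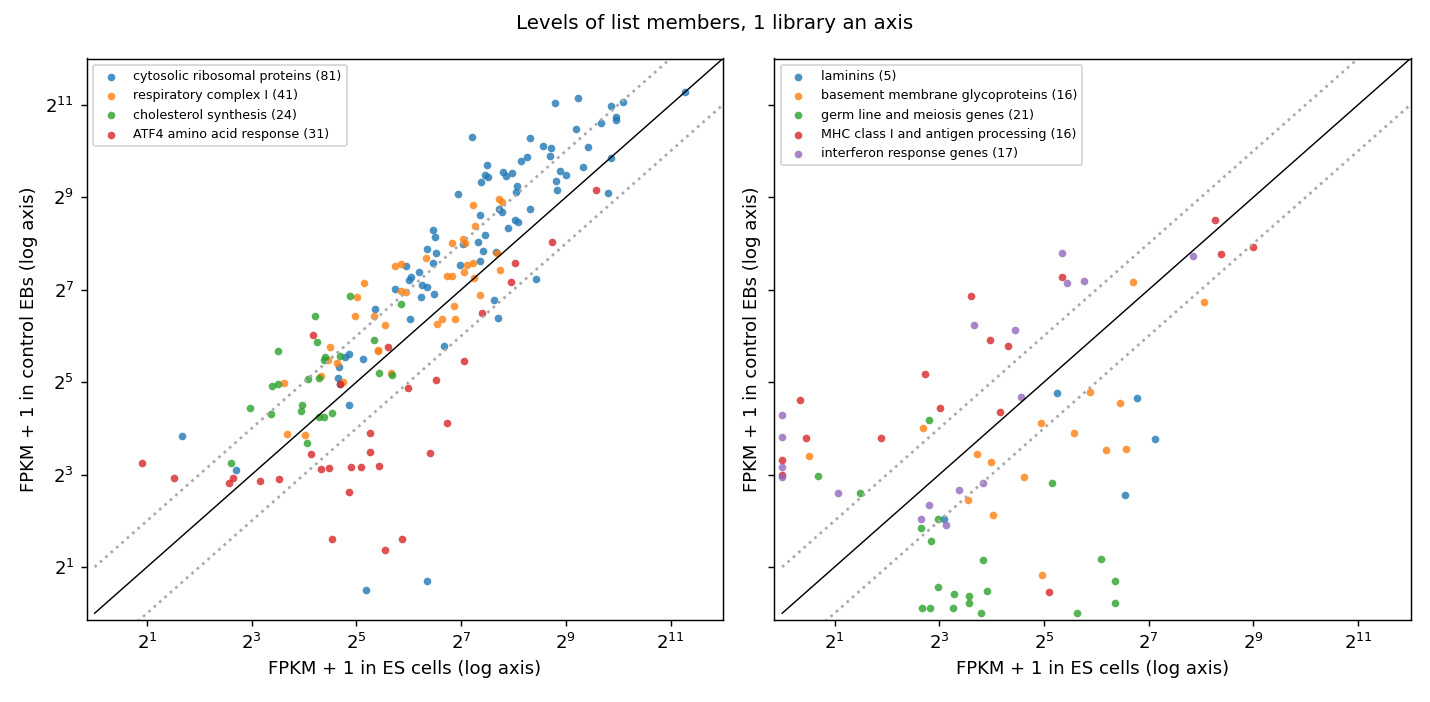
FPKM + 1 in ES cells (horizontal, log axis) against control EBs (vertical, log axis) for members of metabolic and translation lists (left) and of matrix, germ line and immune lists (right). The solid line is equality and the dotted lines a 2-fold difference on this scale; most of the 24 cholesterol synthesis genes lie above equality and most of the 31 ATF4 list genes below it.

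Among ribosomal protein genes more were higher than lower, and 2 paralogs stood far on the lower side. Of 81 cytosolic ribosomal protein genes 37 were higher and 4 lower (median 0.89). Centred by length 26 were higher and 4 lower, with a median of 0.50, and with FPKM divided by their sum 21 were higher and 7 lower. Rps15a was at 147 FPKM in ES cells against 1255 in control EBs, and Rpsa at 178 and 830. Many of these genes have near-identical pseudogene copies among which reads may be split, so single values are uncertain. Pseudogenes, 1092 of the genes compared, were 339 higher and 168 lower, and their FPKM summed to 127560 in ES cells against 262093 in control EBs. Rpl10l (mm9 chromosome 12, 67384368 to 67385388), a retrogene copy of Rpl10 known from the testis, was at 80.6 FPKM in ES cells, 0.615 in control EBs and 8.64 in knockdown EBs. Rpl39l, a copy of Rpl39 also known from the testis, was at 35.3, 0.416 and 1.22 FPKM. Of 62 translation factors 13 were lower and 3 higher (median −0.46). The share lower was near the 20.6% of all genes, and the share higher was below the 15.9% of all genes. Centring made the counts 6 lower and 6 higher, and division by the sum 25 lower and 2 higher.

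In protein turnover, genes of the proteasome list also lay on both sides. Among 45 proteasome subunits and assembly factors 9 were higher and 4 lower. That is 20% and 8.89%, beside 15.9% and 20.6% of all genes. Psma8 passed in ES cells alone and Psmb8 in control EBs alone, so both had to differ. Psma8, the testis form of a core subunit, was at 20.7 FPKM in ES cells against 0.506 in control EBs. Psmb8, a subunit of the immunoproteasome, was listed at 0 and at 9.004 FPKM, and the activator subunit genes Psme1 and Psme2 were at 39.8 and 153 and at 5.62 and 35.2. Of 23 TRIM genes, mostly ubiquitin ligases, 11 were lower and 3 higher (median −0.99), or 7 and 3 after centring by length (median −0.77), including the corepressor Trim28 at 644 and 164 FPKM and Trim71, a let-7 target, at 63.3 and 14.4. In the lysosome Laptm5 (120 and 0.207 FPKM) had the lowest difference of all 10421 genes, −6.64, and its relative Laptm4b was at 14.2 and 83.0. Tcfeb, which encodes TFEB, a transcription factor for lysosome genes, was at 45.3 and 0.679 FPKM, and Rragd, a Rag GTPase gene known as a TFEB target, was at 2.25 and 24.7. Hspb1, a small heat shock protein, was at 259 and 21.6 FPKM.

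**Figure D4:**
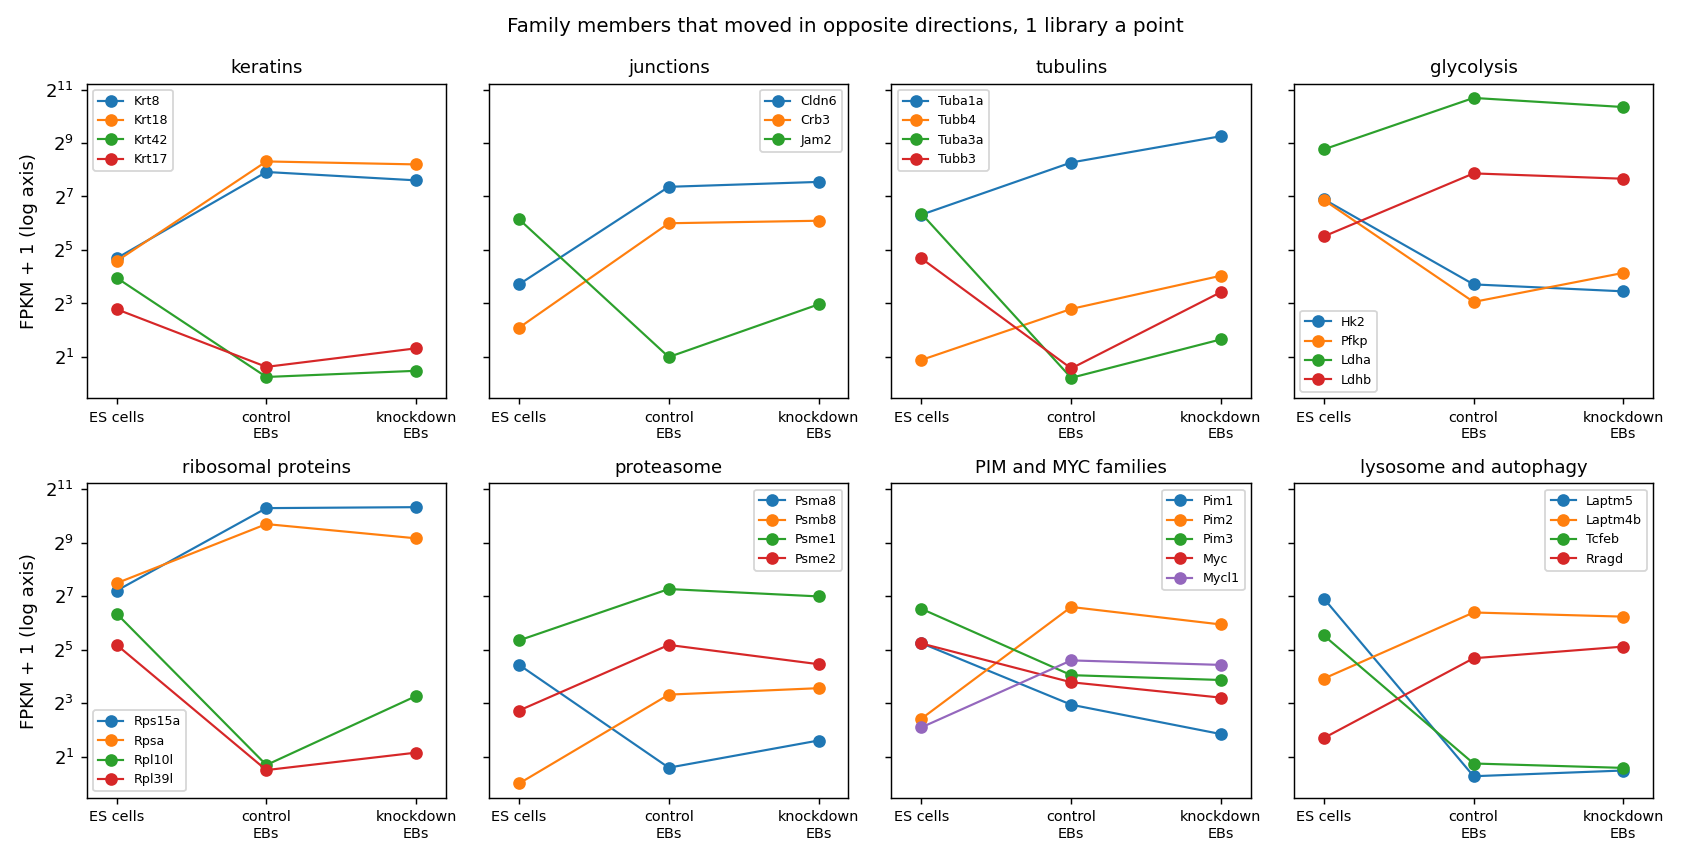
FPKM + 1 (log axis) of selected related genes in ES cells, control EBs and knockdown EBs, 1 library a point; the ES cell and control values are from one table and the knockdown value from the other. In each panel at least 1 gene is higher and at least 1 lower in control EBs, for example Pim2 at 4.37 and 96.0 FPKM against Pim3 at 91.4 and 15.6.

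Cytoskeletal genes divided by family member. Of 17 tubulins 8 were lower and 2 higher (median −0.65, centred −0.69). Tuba3a (mm9 chromosome 6, 125228292 to 125236060), an alpha-tubulin known from the testis, was at 81.0 FPKM in ES cells against 0.165 in control EBs, and its near copy Tuba3b at 12.99 and listed at 0, so reads may be split between them. Tuba1a was at 78.8, 308 and 610 FPKM in ES cells, control EBs and knockdown EBs. Some actin-binding genes typical of contractile cells were higher, with Tagln at 3.11, 65.1 and 4.84 FPKM, Tpm1 at 54.6, 541 and 141, and the myosin light chain gene Myl9 at 0.950, 22.9 and 10.5. The cross-linker genes Actn4 and Actn1 were lower, at 435 and 83.5 and at 101 and 40.3 FPKM. Rab25, a recycling GTPase of epithelia, was at 1.19, 76.3 and 71.1 FPKM. For cilia, 5 of 23 intraflagellar transport genes were higher and 2 lower, and Foxj1, the regulator of motile cilia, was at 0.661, 25.4 and 1.96.

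In several classes of chromatin regulators more genes were lower than higher, by counts that centring by length reduced. DNA methylation and demethylation enzymes had 11 of 20 lower and 0 higher (median −1.23, centred −0.96 with 9 lower). Gadd45a, a gene tied to DNA repair and demethylation, was at 92.9 FPKM in ES cells against 14.9 in control EBs. Polycomb genes had 11 of 24 lower and 2 higher (median −0.91), and 7 lower after centring (median −0.57), with the PRC2 subunit genes Jarid2 at 154 and 25.3 FPKM and Suz12 at 61.2 and 13.6, and the PRC1 gene Cbx7 at 111 and 20.5. Subunits of the BAF remodelling complex had 8 of 22 lower and 0 higher (median −0.83), Arid1a at 109 and 18.98 FPKM among them. After centring 6 were lower (median −0.45). With FPKM divided by their sum 13 were lower, where 3544 of all 10421 genes were lower. Histone demethylases had 10 of 18 lower (median −1.04), and 5 lower after centring (median −0.59). Splicing regulators, with 18 of 70 lower, or 25.7%, and nucleoporins and importins, with 11 of 45, or 24.4%, were near the 20.6% of all genes, and after centring 5 were lower in each list. Against these stood H3f3a, an H3.3 histone gene, at 83.8 and 399 FPKM, and the linker histone gene H1f0 at 90.8 and 217.

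Transcription factor families also had members on both sides. Mycl1 was at 3.28 FPKM in ES cells against 23.3 in control EBs, while Myc was at 36.6 and 12.8 and Mycn at 40.8 and 16.3. The nuclear receptor gene Nr0b1 was at 61.6 and 0.417 FPKM, and Nr6a1, known to repress pluripotency genes, at 12.1 and 33.6. Of 8 ID and bHLH partner genes, inhibitors or partners of lineage factors, 4 were higher and 0 lower, with Id3 at 10.2, 46.9 and 73.3 FPKM in ES cells, control EBs and knockdown EBs. In the cell cycle, Ccne1 and Ccnd3 were at 165 and 34.2 and at 174 and 36.1 FPKM, while the inhibitor gene Cdkn1a was at 17.9 and 55.1, Rb1 at 1.08 and 8.06 and Cdk4 at 371 and 1154. RNA regulators of timing differed in direction, Lin28b at 7.06 and 16.7 FPKM and Igf2bp1 at 128 and 39.0.

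Germ line and meiosis genes were the list with the lowest median among those with at least 5 members past the floor. Of 50 measured, 21 passed, and 16 were lower and 3 higher (median −2.70, centred −2.49). Here 17 of the 21 passed in ES cells alone, and so had to be high there, which bears on the median and its rank. Stra8 (mm9 chromosome 6, 34870163 to 34889342), the gatekeeper of meiosis, was at 48.8 FPKM in ES cells and listed at 0 in both EB libraries. Tex19.1 was at 67.2, 1.24 and 6.53 FPKM in ES cells, control EBs and knockdown EBs. Dnd1, an RNA-binding protein of primordial germ cells, went the other way at 5.97, 17.2 and 7.67 FPKM. Of 26 telomere and 2-cell stage genes measured 8 passed the floor, and 0 of these 8 were called. The other 18 were below 5 FPKM in both libraries and were not compared. Among 28 imprinted genes 9 were higher and 6 lower; Nnat was at 20.7, 115 and 465 FPKM, while Zfp57, which protects imprints, was at 303, 19.99 and 31.3.

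Among antigen presentation and interferon response genes that passed the floor, more were higher than lower. Of 44 genes for MHC class I and antigen processing 16 passed, 5 of them in control EBs alone, and 11 were higher and 2 lower (median 1.92, centred 1.86). B2m, the light chain of class I molecules, was at 11.2 FPKM in ES cells, 115 in control EBs and 69.2 in knockdown EBs. H2-T22, a non-classical class I gene, was at 0.271, 23.3 and 12.1 FPKM, and Erap1, which trims peptides, at 0.369, 12.8 and 8.38. The lower members were H2-M5 at 33.4 and 0.380 and the chaperone Calr at 507 and 242. Of 66 interferon response genes 17 passed, 5 of them in control EBs alone and 3 in ES cells alone. Of the 17, 10 were higher and 2 lower (median 1.55), and after centring 7 of 15 were higher and 0 lower (median 0.86). Gbp2, a guanylate-binding GTPase, was listed at 0 and at 18.4 and 8.06 FPKM, and Isg15, a ubiquitin-like protein, was listed at 0 in ES cells, at 8.005 in control EBs and at 0 in knockdown EBs. The sensor Ddx58 and the transcription factor Stat2 were lower, at 13.3 and 6.05 and at 7.69 and 2.76 FPKM. Of 95 chemokines and cytokines 9 passed, 5 in control EBs alone and 3 in ES cells alone, so the floor set most of their directions. Of the 9, 6 were higher and 2 lower. The higher ones included Ltb at 1.47, 25.6 and 0.546 FPKM and Cxcl10, listed at 0 and at 6.62 and 0.253.

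The core of the interferon-stimulated response element, taken as 2 GAAA repeats with 2 bases between them on either strand, was in 3.44% of all promoter windows. It was in 8 of the 14 interferon response genes with a window, of which 4 were higher and 2 lower. It was also in 4 of the 14 MHC class I and antigen processing genes with a window, all 4 higher. These counts are again per gene, with any of its windows matching, while the 3.44% is per window. Of all genes that passed, 10 of 17 were higher and 2 lower in the interferon list, and 11 of 16 and 2 in the MHC list. The stretches below were taken from 4 genes that were higher, so they do not tie the letters to a direction. Each match is in capitals, and in Isg15 3 overlapping matches run together. They are from RefSeq on GRCm38.p6, 5′ to 3′ on the gene's strand.
B2m, chr2:122147523-122147582, plus strand: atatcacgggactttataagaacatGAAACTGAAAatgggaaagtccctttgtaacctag
H2-T22, chr17:36042899-36042958, minus strand: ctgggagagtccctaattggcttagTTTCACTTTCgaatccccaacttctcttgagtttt
Gbp2, chr3:142620579-142620638, plus strand: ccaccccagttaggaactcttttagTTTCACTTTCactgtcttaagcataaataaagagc
Isg15, chr4:156200850-156200921, minus strand: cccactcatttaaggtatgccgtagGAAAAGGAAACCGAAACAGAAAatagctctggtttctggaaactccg

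**Figure D5:**
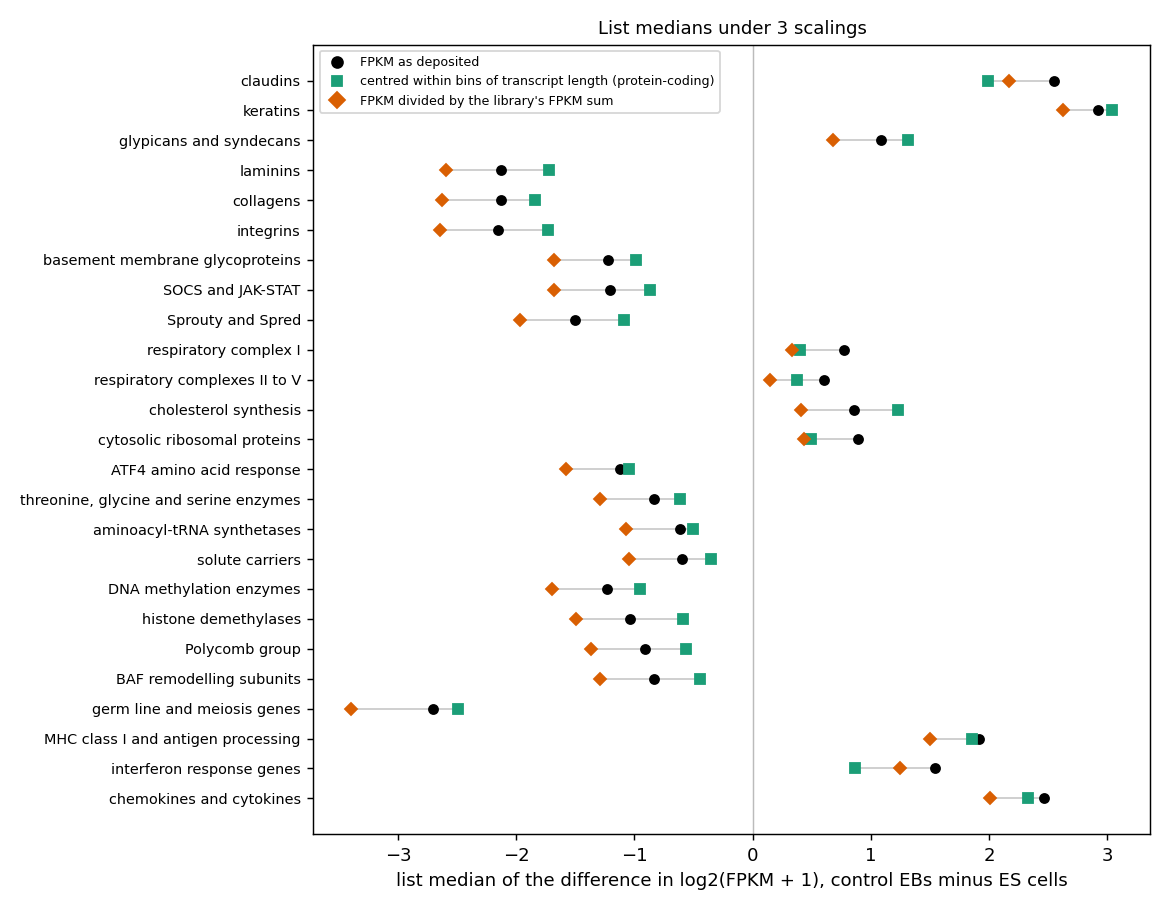
Median difference of each list in log2(FPKM + 1), control EBs minus ES cells, with FPKM as deposited, after centring protein-coding genes within bins of transcript length, and with FPKM divided by the library's sum. Every list drawn keeps the sign of its median; the germ line list stays lowest and the cholesterol synthesis list moves between 0.41 and 1.23.

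Hypoxia genes had 8 of 25 lower and 3 higher (median −0.59), with 5 lower after centring by length (median −0.45). With FPKM divided by their sum 14 were lower, where 3544 of all 10421 genes were lower. The mitophagy receptor gene Bnip3 was at 7.53 FPKM in ES cells against 37.0 in control EBs, while Epas1, which encodes HIF-2 alpha, was at 37.1 and 1.72. Targets of p53 also divided, with 9 of 33 higher and 6 lower. Sfn, a 14-3-3 protein, was at 11.7, 49.2 and 9.06 FPKM in ES cells, control EBs and knockdown EBs, and Plk3 at 21.7 and 1.55. Gstm5 and Prdx4, antioxidant enzymes, were at 1.23 and 39.7 and at 24.6 and 173 FPKM, and Nqo1 and Srxn1, NRF2 targets, at 32.0 and 5.36 and at 45.2 and 10.2.

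Outside all lists, the carbonic anhydrase genes Car4 and Car14 were among the 10 highest, at 7.53 and 302 FPKM and at 0.206 and 34.2. Cxx1c, an X-linked gene, was at 0.328 FPKM in ES cells, 96.7 in control EBs and 2.12 in knockdown EBs. Among the 10 lowest were the water channel gene Aqp3 at 47.8 and 0.490 FPKM, the actin nucleator gene Cobl at 78.9 and 0.326, and the small GTPase gene Mras at 94.96 and 1.002. At the floor itself, Gm8163 was just inside at 1.32 and 5.001 FPKM and Rassf8 just outside at 4.99921 and 1.57.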

How the data were processed

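Deposited tables of 36808 genes held FPKM for 2 libraries each, the first for ES cells with control EBs, the second for control with knockdown EBs. The authors made the FPKM with Bowtie, Cuffdiff and the mm9 build, per the submitters' processing notes, which state no versions; without read counts the depth is unknown. The authors' deposited p-value, unadjusted, was used as an alternative only. Differences were computed within a table. Knockdown values are set beside the others, and were compared with control values of their own table only as medians by transcript length. Control values differed over 1.5-fold between tables for 65 of the genes compared, 29 of them called. A value of 0 may be an estimate that failed, so such genes are given as listed at 0.

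The genes compared had a symbol and at least 5 FPKM in either library. Differences used log2(FPKM + 1), which understates low genes; a difference of 1 was called. The members and the 112 lists, from symbol patterns or written out, were chosen with earlier results of these data known; pattern matches of other function were removed by hand. Named genes were up to 4 highest and 4 lowest called members of each list, otherwise the most abundant, and the 10 highest and lowest outside the lists; some are covered by counts. Biotypes and lengths (longest transcript) came from GENCODE M21, in which 10159 of the 10421 genes were found, and coordinates from the deposited mm9 loci, with 1 added to the start. A locus was shared with another gene for 3931 genes, and it is not known whether strand was used in counting. Promoter windows of 300 bases were RefSeq's. Python 3.11.15 with pandas 2.3.3 and numpy 2.4.6 was used, and the calling and centring steps were tested on simulated data. The alternatives of centring by length and of leaving out shared loci were chosen after seeing the data.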

Additional observations from a re-analysis of the deposited data

How the results depend on the processing

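No paired analysis was possible because each group was 1 library. Beside the 1658 genes higher and 2151 lower in control EBs, dividing FPKM by the library's sum gave 1042 and 3544, and a 3-fold rule gave 843 and 1013. Centring protein-coding genes within bins of transcript length gave 1347 and 1403, and leaving out genes that share a locus gave 1088 and 1347, of 6490 genes tested. The other alternatives for these counts stayed within 1.5 times. The median of the list of semaphorins, plexins and neuropilins was −1.06 and turned to 0.75 with a floor of 1 FPKM and to 0.048 with no floor, and that of the collagens, −2.13, to 0.038 with no floor; both alternatives add genes of low FPKM. Of 94 list medians, centring by length left 86 on the same side of a difference of 1, and division by the sum left 75. The 21 medians past 1 kept their sign under both, while of the 73 within 1 the sign turned for 12 with centring and 19 with division. Low genes are the least precise, and no read counts were at hand to say by how much.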

Other observations

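Genes of the X chromosome were higher more often than those of the other nuclear chromosomes. Of 464 X-linked genes compared, 124 were higher (26.7%) and 76 lower (16.4%), with a median difference of 0.27. On chromosome 1 the shares were 17.9% and 16.4% of 560 genes, and on chromosome 11 they were 11.96% and 26.1% of 886. Among the 314 protein-coding X-linked genes, centring by transcript length gave 95 higher and 34 lower and a median of 0.40, where the other nuclear chromosomes lay between −0.20 and 0.22. Among the X-linked genes named above, Pim2, Amot, Cxx1c and Prdx4 were higher, while Dusp9 was lower, at 113 and 10.1 FPKM. The difference between chromosomes was not tested.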
